A study of Mus musculus with 9 samples.

Results

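The Sox genes encode transcription factors that bind DNA through an HMG box, and 10 of them were examined here in the renal vesicle, the first epithelial stage of the nephron. They were Sox2, Sox4, Sox6, Sox8, Sox9, Sox10, Sox11, Sox12, Sox17 and Sox18, taken at every probe set whose only gene symbol in the platform annotation is one of these names. That gave 32 probe sets of the 45101 on the array, and 10 genes of the 18193 with a probe set. Of the 32, 23 passed a filter on dim probe sets, set on the mean over all arrays without regard to group, and they represented 9 of the 10 genes. Sox2 did not pass. The brightest probe set of a gene, by its mean over the 9 arrays, stands for the gene below, and the others are named by their identifiers.

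The samples were renal vesicles cut by laser from E12.5 mouse embryos, of which 5 samples were wild type and 4 came from Lim1 mutants. The Lim1 gene (present symbol Lhx1) codes for a LIM homeodomain protein needed for nephron formation in mouse. Each array held the RNA of about 30 to 50 vesicles, and both groups went through amplification in several steps before labelling. The labels give no strain, no allele, no zygosity and no number of embryos, and in these bulk samples fewer cells of a type cannot be told apart from less RNA per cell. The labels call the samples biologically independent. All 14 renal vesicle marker genes passed the filter. At the probe set 1421951_at, the Lhx1 signal was 2327 to 17587 on the wild-type arrays and 6.88 to 10.5 on the mutant arrays. At its other probe set, 1450428_at, the signals were 1696 to 18555 and 4108 to 4951 (-0.86 ± 0.58, adjusted p = 0.833). Wild-type arrays 1 and 3 had the lowest mean correlations with the other arrays, 0.860 and 0.850, against 0.877 to 0.901 for the rest.

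Sox proteins are sorted into groups by their HMG box. The SoxC genes Sox4, Sox11 and Sox12 are active in embryonic mesenchyme and in progenitor cells, and mice lacking Sox4 or Sox11 function have kidney defects. The SoxE genes Sox8 and Sox9 act together in the mouse ureteric bud, where they are needed for the response to the receptor Ret, and Sox10, of the same group, is a factor of neural crest and glia. The SoxF genes Sox17 and Sox18 act in endothelium, Sox2 in neural progenitors and stem cells, and the SoxD gene Sox6 in cartilage and in maturing red blood cells. The genes therefore fall into nephron or bud members (Sox4, Sox8, Sox9, Sox11, Sox12), endothelial members (Sox17, Sox18), neural crest and neural members (Sox10, Sox2) and Sox6.

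No Sox probe set differed between mutant and wild-type vesicles past adjusted p 0.05. Of the 23 tested, 0 passed in limma, none higher and none lower, and 1 had an unadjusted p under 0.05. Over all 27022 probe sets tested, 0.0333% passed, 0.0148% higher and 0.0185% lower in the mutants, and 6.67% had an unadjusted p under 0.05. The groups overlapped at each of the 23, against 2.25% of all tested probe sets without overlap. Differences, as mutant minus wild type on the log2 scale, were below 0 at 18 of the 23 Sox probe sets (median -0.51). Over all tested probe sets the share was 47.3%, with a median of 0.03. Sox4 and Sox11 gave 4 and 5 of the 18, and probe sets of 1 gene, measured on the same RNA, are not independent. At the representative probe sets, 7 of 9 genes had differences below 0, against 43.5% of all 13226 genes. The exceptions were Sox4 at 0.11 and Sox12 at 1.07. The 95% intervals of all 9 genes included 0 and were wide, from -0.66 to 0.88 for Sox4, the narrowest, to -4.91 to 0.80 for Sox6. At Sox8, Sox6 at 1427677_a_at, Sox9 at 1424950_at and Sox17 at 1421657_a_at, the mean of the mutant arrays alone lay below the filter. These passed through their wild-type values, so the counts of signs only describe the tested probe sets. No joint test over the 10 genes was made.

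**Figure D1:**
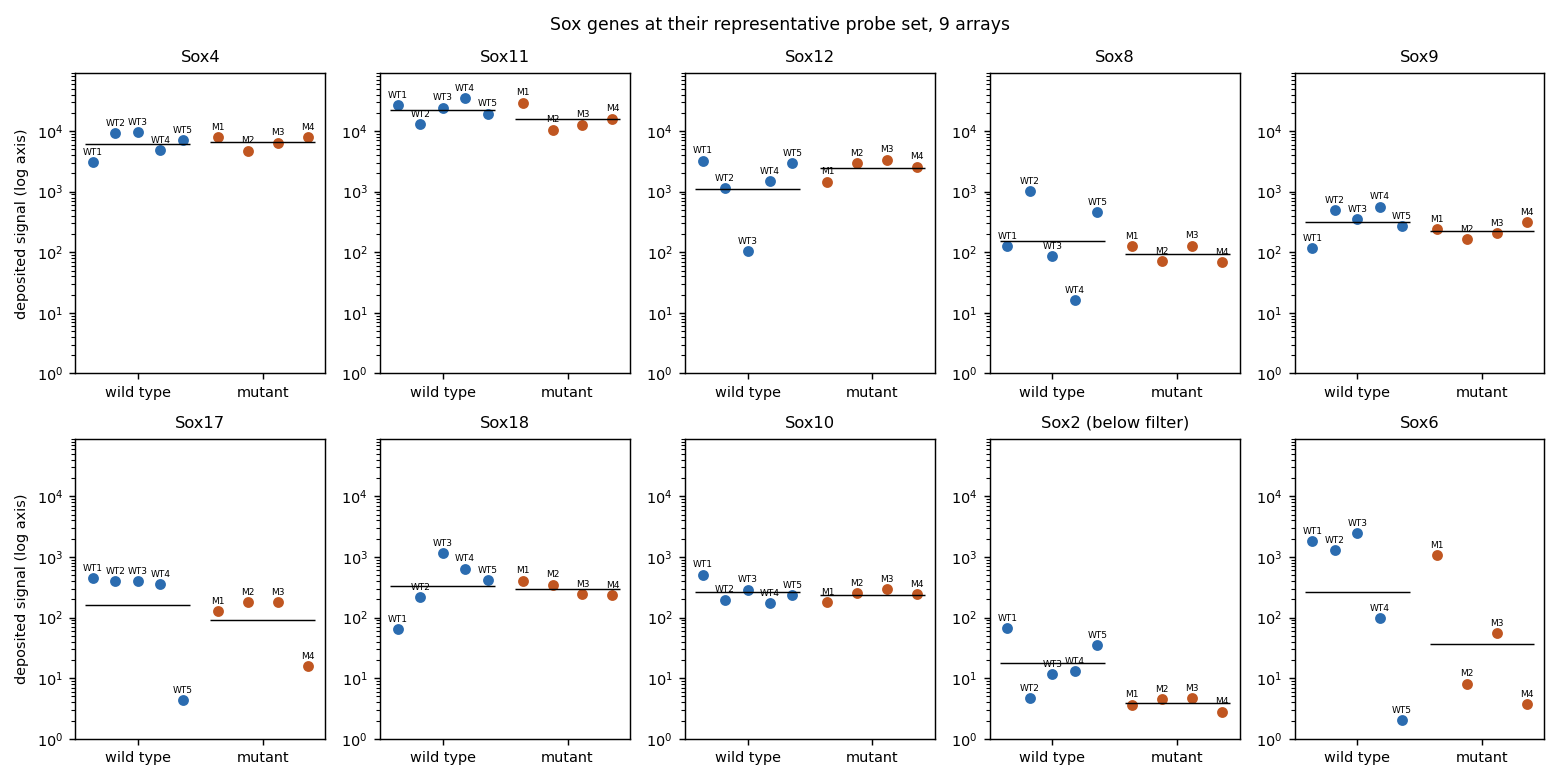
Deposited signals (log axis) of the 10 Sox genes at their representative probe set, 1 point per array labelled WT1 to WT5 (wild type) and M1 to M4 (mutant), with a bar at the geometric mean of each group. The groups overlap for 9 genes. Sox2 lay below the filter. Sox6 spans 2.05 to 2450 among the wild-type arrays.

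**Figure D2:**
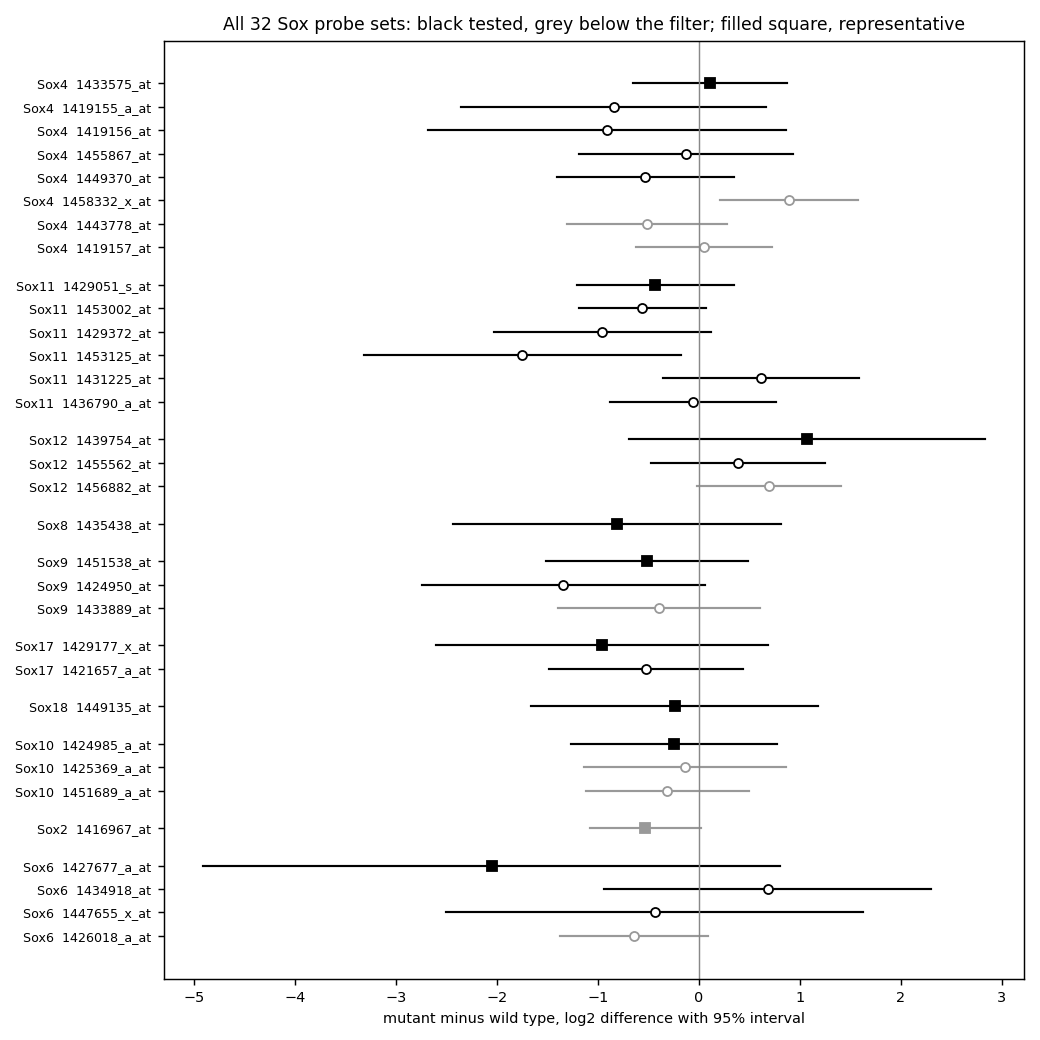
Log2 difference, mutant minus wild type, with its 95% interval for all 32 Sox probe sets, grouped by gene. Black marks were tested, grey marks lay below the filter and come from the fit with no filter, and filled squares mark the representative probe set. Most marks lie left of 0 and nearly all intervals cross it. The intervals that do not are those of Sox11 at 1453125_at and Sox4 at 1458332_x_at.

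Among the SoxC genes, promoter sequences of all 3 were at hand, and they are shown because these genes gave 13 of the 23 tested probe sets. The stretches run from 250 bases before to 50 bases after a RefSeq start site (GRCm38.p6), 5′ to 3′ on the gene's strand, with capitals at each CCAAT or its reverse complement ATTGG. They lie on the minus strand at chr13:28953650-28953949 (Sox4), chr12:27342669-27342968 (Sox11) and chr2:152397997-152398296 (Sox12).
Sox4: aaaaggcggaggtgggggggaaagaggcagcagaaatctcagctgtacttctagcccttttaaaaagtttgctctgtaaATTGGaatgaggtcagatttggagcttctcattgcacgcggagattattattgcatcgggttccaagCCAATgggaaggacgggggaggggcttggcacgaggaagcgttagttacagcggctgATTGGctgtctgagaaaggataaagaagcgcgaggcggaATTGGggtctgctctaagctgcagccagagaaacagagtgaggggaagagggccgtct
Sox11: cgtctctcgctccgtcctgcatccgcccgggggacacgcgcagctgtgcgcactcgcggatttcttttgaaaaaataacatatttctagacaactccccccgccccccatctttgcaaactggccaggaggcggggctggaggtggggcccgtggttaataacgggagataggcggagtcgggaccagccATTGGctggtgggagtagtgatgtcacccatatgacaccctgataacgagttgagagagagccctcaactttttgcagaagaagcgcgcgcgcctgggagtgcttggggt
Sox12: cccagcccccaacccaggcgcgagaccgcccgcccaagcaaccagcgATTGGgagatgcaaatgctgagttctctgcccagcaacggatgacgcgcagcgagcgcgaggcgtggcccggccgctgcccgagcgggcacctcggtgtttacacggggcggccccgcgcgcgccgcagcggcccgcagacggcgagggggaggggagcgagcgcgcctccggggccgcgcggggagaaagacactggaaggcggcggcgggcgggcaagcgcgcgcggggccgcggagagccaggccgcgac
The motif occurs 4 times in the Sox4 stretch and 1 time each in those of Sox11 and Sox12, on either strand, and 37.4% of all 32851 RefSeq promoters of this length hold it. The letters TAATTA, a core that LIM homeodomain proteins bind, occur in 5.29% of those promoters and in none of the 11 stretches found for 6 of the Sox genes (Sox2, Sox4, Sox6, Sox8, Sox11 and Sox12). A match or its absence describes these letters only.

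Sox4 had close mean signals in the 2 groups at its representative probe set. Its signals on wild-type arrays 1 to 5 were 3041, 9235, 9502, 4878 and 7103, and on mutant arrays 1 to 4 they were 7843, 4752, 6467 and 8055. The mutant arrays lay within the wild-type range, and the means were 6752 ± 2790 (SD, n = 5) and 6779 ± 1524 (n = 4). The log2 difference was 0.11 ± 0.35 (SE, adjusted p = 0.974). At the other 4 tested Sox4 probe sets the differences were -0.84, -0.91, -0.12 and -0.53, with adjusted p from 0.858 to 0.980. Of the 3 Sox4 probe sets below the filter, 1458332_x_at read 12.47 to 18.0 on the wild-type arrays and 11.7 to 122 on the mutants (0.89 ± 0.31 with no filter, adjusted p = 0.810). Mutant array 3 was its lowest array and the other 3 mutant arrays its highest, while 1443778_at, tied by the annotation to the same source sequence, had a difference of -0.51. The sign at the representative probe set turned to -0.23 when all Sox4 probe sets were averaged and to -0.13 without wild-type array 1, the lowest of the 9.

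The annotation ties the Sox4 probe sets 1419155_a_at, 1419156_at, 1449370_at and 1419157_at to the same source sequence. Of these, 1419155_a_at and 1419156_at read low on the same 3 arrays. At 1419155_a_at, wild-type arrays read 2328, 2645, 5170, 2474 and 726, and mutant arrays 4115, 612, 416 and 2158. At 1419156_at the wild-type values were 1957, 3151, 5048, 2319 and 454, and the mutant values 4612, 449, 314 and 1795. The lowest at both were wild-type array 5 and mutant arrays 2 and 3, while mutant array 1 was second only to wild-type array 3.

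Sox11 was bright in both groups, and 5 of its 6 tested probe sets had differences below 0. At the representative probe set the wild-type signals were 26964, 13122, 24335, 34882 and 19449, and the mutant signals 29375, 10582, 12775 and 15985. Mutant array 1 lay above 4 of the 5 wild-type arrays, and mutant arrays 2 and 3 lay below all 5. The means were 23750 ± 8156 and 17179 ± 8428, with a log2 difference of -0.43 ± 0.35 (adjusted p = 0.868, 95% interval -1.21 to 0.35). The probe set 1453002_at, from the same source sequence, read 7621 to 20926 on the wild-type arrays and 6783 to 10958 on the mutants, a difference of -0.56 ± 0.29 (adjusted p = 0.786).

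The widest Sox11 difference, and the only Sox probe set tested with an unadjusted p under 0.05, was at 1453125_at. Its wild-type values were 6993, 7848, 16482, 14689 and 6828, and its mutant values 10972, 782, 1034 and 6526, so that mutant arrays 2 and 3 were far below the rest and mutant array 1 was among the wild-type arrays. The difference was -1.75 ± 0.71 (adjusted p = 0.729, exact permutation p = 0.0873, two-sided). Its partner from the same source sequence, 1429372_at, was lowest on the same mutant arrays, at 2313 and 1623, and had a difference of -0.96 ± 0.49 (adjusted p = 0.786). At 1436790_a_at the difference was -0.06 ± 0.37, and at 1431225_at it was 0.62 ± 0.44 (adjusted p = 0.987 and 0.848). At 1431225_at the lowest array was wild-type array 3, at 892, and mutant array 1 was the highest, at 4663.

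Mutant arrays 2 and 3 were low at the Sox4 probe sets 1419155_a_at and 1419156_at and at the Sox11 probe sets 1429372_at and 1453125_at. Wild-type array 5 was low at these Sox4 probe sets, but at 1453125_at it read 6828, above mutant array 4 at 6526. The 3 arrays had the highest 3 prime to 5 prime signal ratios of the beta-actin control. This ratio is a measure of how far the amplified RNA reaches from the 3 prime end. That ratio was 25.2 on mutant array 2, 23.1 on mutant array 3 and 21.7 on wild-type array 5, against 14.7 to 18.0 on the other 6 arrays. The Gapdh ratio did not order the arrays the same way: it was highest on wild-type array 3 at 87.6, with mutant arrays 2 and 3 next at 61.4 and 39.8 and wild-type array 5 at 23.6. With those 3 arrays left out, a setting chosen after the values were seen, the differences at 1419155_a_at, 1419156_at, 1429372_at and 1453125_at were -0.02, -0.04, -0.06 and -0.31, and the representative Sox11 probe set stood at 0.04 (4 wild-type and 2 mutant arrays). The first 4 of these had been picked for low values on all 3 arrays (Sox4) or on mutant arrays 2 and 3 (Sox11). Their smaller differences follow from the choice. Other probe sets did not shrink in the same way: Sox4 at 1449370_at and 1455867_at stood at -0.55 and -0.24, Sox11 at 1453002_at at -0.47 and Sox9 at 1424950_at at -1.59. The part of RNA length in the differences was not tested.

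**Figure D3:**
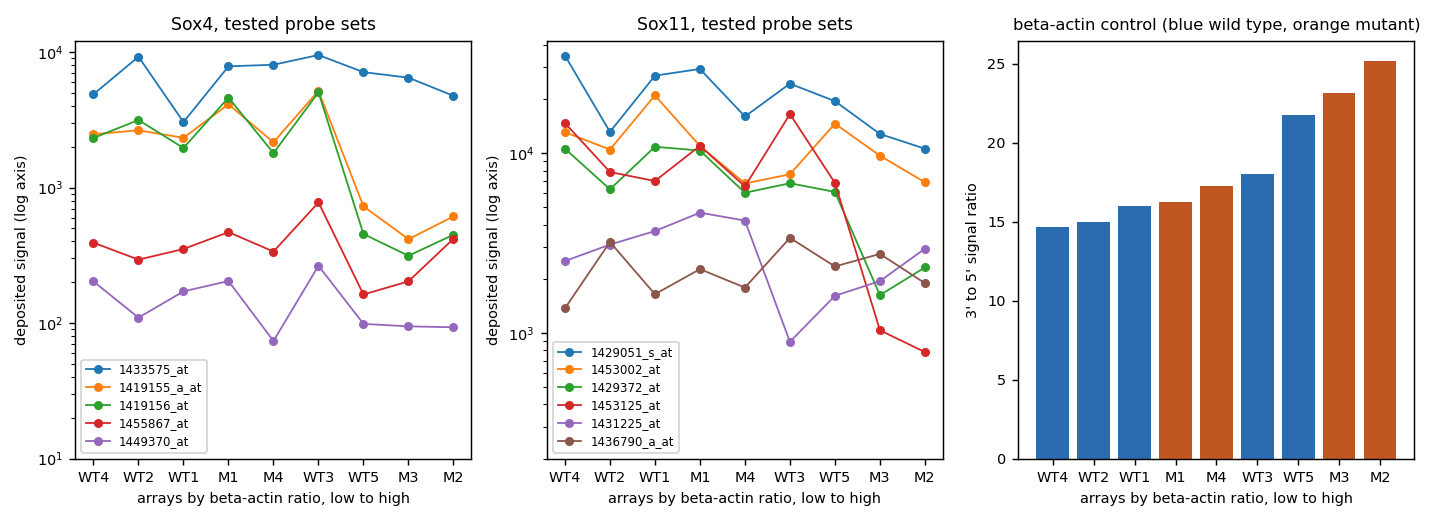
Deposited signals (log axis) of the tested Sox4 probe sets (left) and Sox11 probe sets (middle) on each array, and the 3 prime to 5 prime ratio of beta-actin (right), with arrays ordered from the lowest to the highest ratio and each line 1 probe set. The Sox4 lines 1419155_a_at and 1419156_at drop on WT5, M3 and M2. The Sox11 lines 1429372_at and 1453125_at drop on M3 and M2, while the representative lines, 1433575_at and 1429051_s_at, span a smaller range over the arrays.

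Sox12 had differences above 0 at both tested probe sets. At the representative one, the wild-type arrays read 3242, 1145, 103, 1483 and 2972, and the mutant arrays 1466, 2979, 3370 and 2597. Wild-type array 3 stood far below the rest, and the remaining values overlapped. The difference was 1.07 ± 0.80 (adjusted p = 0.857), and without wild-type array 3 it was 0.32. At 1455562_at, where wild-type array 3 read 1293, it was 0.39 ± 0.39 (adjusted p = 0.897). With the 3 arrays of high beta-actin ratio left out, that value was -0.14. The third Sox12 probe set, 1456882_at, lay below the filter, at 37.3 ± 27.9 and 86.8 ± 22.1.

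Of the SoxE genes, Sox9 had lower mean signals in the mutants at all 3 probe sets, within the spread of the arrays. The representative probe set read 118, 496, 349, 564 and 267 on the wild-type arrays and 241, 163, 207 and 317 on the mutant arrays. Wild-type array 1 was the lowest of the 9 and the other 4 wild-type arrays included the 3 highest values. The difference was -0.51 ± 0.46 (adjusted p = 0.881). At 1424950_at the wild-type values were 408, 619, 69.3, 362 and 214 and the mutant values 34.7, 277, 22.5 and 150, a difference of -1.34 ± 0.64 (adjusted p = 0.757, 95% interval -2.75 to 0.06). There, wild-type array 3 read as low as the mutants, and mutant array 2 lay within the wild-type range. Sox9 at 1433889_at was below the filter, at 76.7 ± 67.7 and 46.5 ± 36.8.

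Sox8 was high on only 2 arrays, both wild type. Its single probe set read 126.3, 1014, 85.5, 16.1 and 462 on the wild-type arrays and 126.4, 72.0, 129 and 69.3 on the mutants. Wild-type arrays 2 and 5 stood above all others, while wild-type array 4 was the lowest of the 9. The difference was -0.81 ± 0.74 (adjusted p = 0.884), and without wild-type array 2 it was -0.29, while without wild-type array 4 it was -1.31. Wild-type array 2 also had the highest signals of Calb1, a calcium-binding protein of the ureteric bud (39640, against 239 to 6566 elsewhere), and the highest level of the bud marker list. On wild-type array 5, where Sox8 read 462, Calb1 read 2002, below wild-type array 3 and mutant array 3, and the bud level of 0.20 was below that of wild-type arrays 1 to 3.

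Bud markers were set beside Sox8 and Sox9 because captured vesicles lie next to the bud. Of 13 bud genes with a probe set, 11 were tested, 9 had differences below 0, none passed the test (background over genes 0.0529%), and the median was -0.52, against 0.07 for all genes. The summed bud signal was 19545 to 69562 on the wild-type arrays and 7587 to 17047 on the mutant arrays, with no member at 0. The groups' sums overlapped once Emx2, Krt18 or Cdh1 was left out, and without Emx2 they were 13576 to 66079 and 6720 to 16035. The largest differences were those of Ret (-2.43 ± 1.26, adjusted p = 0.786), Calb1 (-2.21 ± 1.15, adjusted p = 0.786) and Emx2, a homeobox factor of bud and nephron (-2.16 ± 0.50, adjusted p = 0.387). The 2 tested bud genes above 0 were Wnt11 (0.77 ± 0.49, adjusted p = 0.824) and Upk3a (0.34 ± 0.51, adjusted p = 0.938). Gata3, a bud transcription factor whose mean lay below the filter and which was picked out after its values were seen, read 15.0 to 2141 on the wild-type arrays and 4.44 to 10.7 on the mutants (-2.77 ± 0.95 with no filter, adjusted p = 0.807). Hoxb7, also below the filter, went the other way (0.38 ± 0.38 with no filter, adjusted p = 0.926). Of 8 genes of the Ret response, the program that Sox8 and Sox9 sustain in the mouse bud, 4 had differences above 0 and 4 below, none passed, and the median was 0.09. Ret was the lowest of these, and Cxcr4, a chemokine receptor, and Spry1, a feedback inhibitor of receptor tyrosine kinases, had the highest values, at 1.67 ± 0.65 (adjusted p = 0.720) and 1.14 ± 0.33 (adjusted p = 0.638). The part of bud cells in the Sox8 and Sox9 values was not tested.

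None of the 6 tested cartilage genes that Sox9 drives together with Sox5 and Sox6 passed the test. Differences were above 0 at 4 of the 6 (66.7%), against 56.5% of all tested genes. Col2a1, the main cartilage collagen, read 431, 564, 773, 565 and 863 on the wild-type arrays and 1302, 2279, 1436 and 1087 on the mutants, so the groups did not overlap. The difference was 1.15 ± 0.41 (adjusted p = 0.696). Col9a1, another cartilage collagen, read 684, 1337, 225, 664 and 1231 against 1982, 2997, 3689 and 3154, again without overlap (1.92 ± 0.50, adjusted p = 0.513). Col11a1, a fibrillar collagen partner, had a difference of 1.34 ± 0.70 (adjusted p = 0.786) and its groups overlapped. Of the 6, 2 had no overlap, against 2.77% of all tested genes, and the median was 0.96. The summed signal of the 9 listed genes was 2123 to 3070 on the wild-type arrays and 4798 to 6984 on the mutant arrays, and without Col9a1 it was 1439 to 2616 and 2192 to 3986, with overlap. The 2 tested genes below 0 were Col11a2 (-0.71 ± 0.50, adjusted p = 0.847) and Acan, the cartilage proteoglycan (-0.21 ± 0.38, adjusted p = 0.949). Acan read 77.1 to 204 and 128 to 149. The listed genes Matn1, Matn4 and Col9a2 lay below the filter, at -0.21, -0.43 and -0.20 in the fit with no filter.

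**Figure D4:**
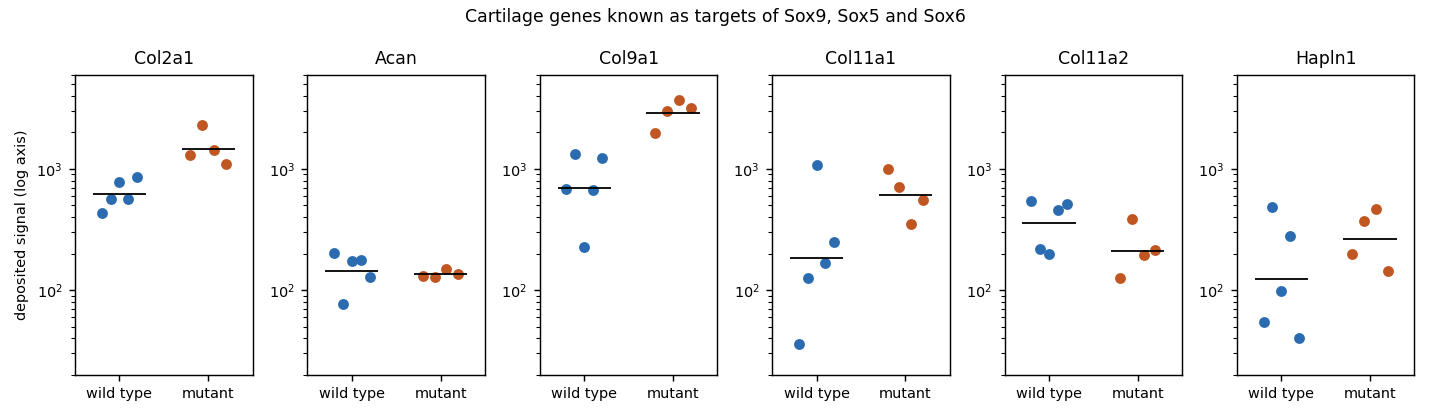
Deposited signals (log axis) of the 6 tested cartilage genes, 1 point per array, with a bar at the geometric mean of each group. The mutant points of Col2a1 (1087 to 2279) and Col9a1 (1982 to 3689) lie above all wild-type points. The groups overlap for Acan, Col11a1, Col11a2 and Hapln1.

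Neither endothelial member passed the test, and single wild-type arrays set much of their spread. Sox17 read 454, 395, 399, 358 and 4.31 on the wild-type arrays and 129, 181, 182 and 15.7 on the mutants. Wild-type arrays 1 to 4 lay above every mutant array, and wild-type array 5 lay below every one. The difference was -0.96 ± 0.75 (adjusted p = 0.861). It was -1.61 (adjusted p = 0.688) without wild-type array 5 and -2.24 ± 0.65 (adjusted p = 0.9998) without that array and mutant arrays 2 and 3, but -0.51 without mutant array 4 and -0.36 without wild-type arrays 1 and 3. At the other Sox17 probe set, 1421657_a_at, the values were 245, 118, 119, 361 and 56.8 against 106, 131, 89.5 and 86.9, with wild-type array 5 again the lowest (-0.53 ± 0.44, adjusted p = 0.870).

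Sox18, which acts in blood vessels and in the origin of lymphatic vessels, read 64.2, 214, 1167, 644 and 411 on the wild-type arrays and 408, 349, 246 and 236 on the mutants. The mutant arrays lay in the middle of a wide wild-type range. The difference was -0.24 ± 0.65 (adjusted p = 0.970), and without wild-type array 3 it was 0.17.

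The endothelial markers as a list were highest on the arrays where Sox18 was highest, but not all of them followed it. The endothelium list level, the median log2 deviation of its tested members from their means, ran from -0.71 to 0.10 on 7 arrays but reached 1.35 on wild-type array 3, and wild-type array 4 followed at 0.93. Sox18 was highest on these 2. Kdr, the VEGF receptor of endothelium, read 3758 and 4011 there, while Tek, an angiopoietin receptor, was highest on wild-type array 5, at 1923. On wild-type array 1, where Sox18 was lowest, the list level was 0.08, above that of all 4 mutant arrays. Erg, an endothelial ETS factor, read 4.67 on wild-type array 5 and 19.9 on mutant array 4, the arrays on which Sox17 was lowest, and 14.3 on mutant array 1. Of 13 tested endothelial genes, all had differences below 0 with a median of -0.63, against 43.5% of all genes tested. Erg and the listed gene Flt1 were tested only through their wild-type values, as the mean of their mutant arrays alone lay below the filter. The count of signs therefore only describes the tested genes. The tight junction gene Cldn5 was the 1 that passed (-3.40 ± 0.32, adjusted p = 0.00450), against 0.0529% of all genes tested. The list was chosen with earlier results of these data known, so that share is a description only. Cldn5 read 7988 to 10631 on the wild-type arrays and did not follow the list level. Its signal was 10631 on wild-type array 5, where the level was -0.55, the lowest of the wild-type arrays. On wild-type array 2, where the level was 0.105, it was 10521. On the normalised log2 scale of the level, Cldn5 was highest on wild-type array 2 (13.38), with wild-type array 5 next (13.34). Cldn5 passed in 17 of 20 other settings, with differences of -3.80 to -3.21 over all 20. It did not pass with the replicate block (adjusted p = 0.184), without wild-type arrays 1 and 3 (adjusted p = 0.0645) or without the 3 arrays of high beta-actin ratio (adjusted p = 0.174). Kdr and Erg had differences of -1.24 ± 0.93 and -1.42 ± 0.95 (adjusted p = 0.858 and 0.831). The summed signal of the list was 18407 to 47315 on the wild-type arrays and 9014 to 13485 on the mutants, and no member was at 0. Cldn5 alone kept these sums apart: without it they were 7776 to 38070 and 8405 to 12427, and wild-type array 5 lay below every mutant array. The part of endothelial cells in the Sox17 and Sox18 values was not tested.

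**Figure D5:**
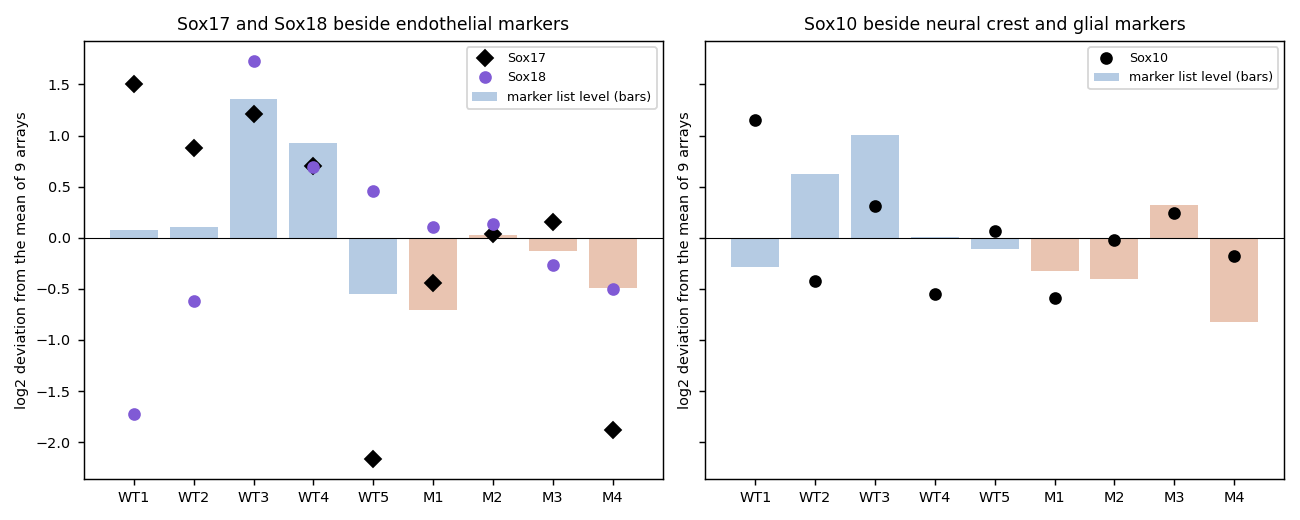
Log2 deviation from the mean of the 9 arrays for Sox17 and Sox18 beside the endothelial marker list (left), and for Sox10 beside the neural crest and glial list (right). Bars give the list level (blue wild type, orange mutant) and points the Sox genes. Sox18 is highest on WT3 and WT4, where the endothelial level is 1.35 and 0.93, and Sox10 is highest on WT1, where the neural crest level is -0.29.

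Sox10, the neural crest and glial member, did not pass the test. Its representative probe set read 513, 197, 290, 175 and 234 on the wild-type arrays and 180, 252, 297 and 246 on the mutants, all within the wild-type range. The difference was -0.25 ± 0.46 (adjusted p = 0.951, 95% interval -1.26 to 0.77), and it was 0.02 without wild-type array 1, the highest. The other Sox10 probe sets lay below the filter, at 96.2 and 47.3 in the wild type and 90.8 and 26.3 in the mutants. Neural crest and glial markers did not follow it: their level peaked on wild-type array 3 (1.004), with wild-type array 2 next (0.62), and was -0.29 on wild-type array 1. All 5 tested markers of 8 with a probe set had differences below 0, against 43.5% of all genes tested. None passed, and the median was -0.43. Tfap2a, a factor of neural crest and of nephron epithelium, had the largest at -1.93 ± 0.66 (adjusted p = 0.691), followed by Erbb3 (-0.68 ± 0.71, adjusted p = 0.902) and Ednrb (-0.43 ± 0.60, adjusted p = 0.932), both receptors of the crest. Fabp7 and Ngfr, the other tested markers, were near 0, at -0.10 and -0.003. The crest factors Foxd3 and Pax3 and the marker S100b lay below the filter, at -0.49, -0.52 and 0.36 in the fit with no filter. The summed signal was 3526 to 12303 and 2966 to 5248, with no marker at 0.

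Sox2 was dim on every array. It read 66.7, 4.74, 11.6, 12.9 and 35.3 on the wild-type arrays and 3.67, 4.50, 4.67 and 2.82 on the mutants. The mutants lay below all wild-type arrays, by as little as 4.67 against 4.74. In the fit with no filter the difference was -0.53 ± 0.25 (adjusted p = 0.857, exact permutation p = 0.0714, two-sided). Its signals were near or below the pseudocount of 42.4 added before the logarithm, so the log2 difference is compressed. Of 10 neuronal genes, 7 were tested, 5 with differences below 0 and none past the test, with a median of -0.70. Dcx, a microtubule protein of young neurons, had the largest (-2.22 ± 0.86, adjusted p = 0.720), then Stmn2 (-0.94 ± 0.45) and Nefm (-0.80 ± 0.94), with adjusted p of 0.766 and 0.915. Stmn2 and Nefm were tested only through their wild-type values, as the mean of their mutant arrays alone lay below the filter. The count of signs therefore only describes the tested genes. The summed signal of the 10 neuronal genes was 1560 to 8843 in the wild type and 1459 to 2525 in the mutants.

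Sox6 had the widest spread of the 10 genes, with an SD of 2.48 log2 units over the 9 arrays, wider than in 99.8% of tested genes. The representative probe set read 1830, 1297, 2450, 98.9 and 2.05 on the wild-type arrays and 1063, 8.15, 55.2 and 3.76 on the mutants. It was therefore high on mutant array 1 and the first 3 wild-type arrays, and low on the other 5. The difference was -2.06 ± 1.30 (adjusted p = 0.823). It was -3.09 without mutant array 1, -0.67 without wild-type arrays 1 and 3, and -0.61 averaged over the Sox6 probe sets. The other tested Sox6 probe sets did not share this split. At 1434918_at the values were 54.9, 1149, 67.4, 34.7 and 150 against 378, 167, 409 and 193 (0.68 ± 0.74, adjusted p = 0.907). At 1447655_x_at they were 12.02, 1506, 80.9, 568 and 193 against 393, 103, 429 and 16.9 (-0.44 ± 0.94, adjusted p = 0.958). Wild-type array 2 was the highest at both. The probe set 1426018_a_at was below the filter, at 62.6 ± 43.4 and 26.8 ± 24.2.

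Probe sets of 1 gene could disagree in sign, among Sox genes and elsewhere. Of 6 Sox genes with more than 1 tested probe set, Sox4, Sox6 and Sox11 had differences of both signs, which is 50.0%, against 50.5% of the 5786 such genes on the array. Sox9, Sox12 and Sox17 kept 1 sign over their tested probe sets. The 2 shares are not matched for probe sets per gene, of which Sox11 had 6 tested and Sox4 had 5.

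The lineages can be set side by side only as medians of few genes. The 5 nephron or bud members had a median difference of -0.43, with 2 above 0 and 3 below. The 2 endothelial members had a median of -0.60, both below 0. The single tested neural crest and neural member, Sox10, was at -0.25. No member of any lineage passed the test, and the difference between lineages was not tested.

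The Sox family genes outside these 10 gave no call either. Of Sox1, Sox3, Sox5, Sox7, Sox13, Sox14, Sox15, Sox21, Sox30 and Sry, 5 passed the filter, 2 with differences above 0 and 3 below. Sox13, of the SoxD group, had the largest at 0.61 ± 0.41 (adjusted p = 0.836), from 758 ± 256 to 1183 ± 298. Sox21 was at -0.55 ± 0.51 (adjusted p = 0.887), Sox15 at -0.41 ± 0.42 (adjusted p = 0.898), Sox3 at 0.11 ± 0.41 (adjusted p = 0.978) and Sox5 at -0.01 ± 0.50 (adjusted p = 0.998). Sox7, the third SoxF gene, lay below the filter, at 101 ± 86.1 and 62.7 ± 13.7. Sox1, Sox14, Sox30 and Sry were below it as well, with mean signals of 12.6 and 39.2, 19.9 and 21.0, 58.6 and 53.2, and 84.9 and 156.

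For the 4 Sox genes with an SD of at least 1 log2 unit over the arrays, the genes of the most similar pattern were sought among 13225 others, by the root mean square difference of their deviations over the 9 arrays. Sox12 came closest to Ccpg1os (0.42 log2 units), Glrb (0.45) and Mrpl47 (0.46), and each of the 3 was lowest on wild-type array 3. Sox17 came closest to Mon1b (0.46), Capn5 (0.49) and Tmod4 (0.56), none of which was on the endothelial list. Sox8 came closest to Hlf (0.63), Hsbp1 (0.65) and Tesc (0.67). Sox6 came closest to Cdk6, Tmed8 and Gm8350, at 1.09, 1.11 and 1.19. These distances grow with a gene's own spread, which was 1.26 log2 units (SD) for Sox8, 1.30 for Sox17, 1.44 for Sox12 and 2.48 for Sox6, so they are not compared between the 4 genes.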

How the data were processed

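Mouse renal vesicle RNA was measured on 9 one-colour Affymetrix-type arrays. The authors deposited 1 linear intensity per probe set and array, made with GCOS per the submitters' processing notes, with an algorithm and version not given in the sources used here. The mean intensity after trimming 2% at each end was 1500 on every array, so each had been scaled. Array medians were 144 to 195. The depth of an array has no count, and the number of arrays limits the precision. The p-values weigh a difference between groups against the spread between arrays within groups.

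Names of probe sets came from the platform annotation, and several symbols gave no name. Intensities were transformed as log2(value + 42.4), the 25th percentile of all values, and quantile normalised, because the array medians differed by 0.349 log2 units (tolerance 0.1). Differences on this scale understate changes of dim probe sets. Of the 45037 probe sets that are not controls, the 27022 at or above the 40th percentile of the mean were tested with limma 3.58.1 in R 4.3.3 (lmFit and eBayes with a variance trend, two-sided). Group was the only term, with Benjamini-Hochberg adjustment over all of them. Adjusted p values are from limma, errors of differences are standard errors, and those of signals are SD. Single genes also had an exact permutation test (smallest p possible 0.00794). The fit was tested on simulated data.

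The members and gene lists were chosen with earlier results of these data known. All 10 Sox genes, the other Sox genes and Lhx1 were named whatever their result, and of each marker list the members past the threshold and the 3 with the largest differences. Other marker genes given with a value (Acan, Col11a2, Tek, Krt18, Cdh1, Wnt11, Upk3a, Hoxb7, Matn1, Matn4, Col9a2, Foxd3, Pax3, Fabp7, Ngfr, S100b, Gata3) were chosen after their values were seen. Replicate numbers did not pair the samples: same-numbered arrays had correlations of -0.11 to 0.05 in their deviations from group means, against -0.12 to 0.13 for other pairs. Alternatives covered normalisation, pseudocount, filter, variance trend, array weights, arrays left out, the replicate block and averaging over probe sets.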

Additional observations from a re-analysis of the deposited data

Results flagged for a closer look

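Dixon's test on 46 sets of values (the 23 tested Sox probe sets in each genotype) picked out 1 array that stood apart, fewer than the 2.3 that chance would give at about 1 set in 20. It was Sox17 at its representative probe set on wild-type array 5, at 4.31, against 358 to 454 on the other 4 wild-type arrays. The gap took 0.782 of the group's log2 range, above the critical value of 0.71. At the other Sox17 probe set the same array was the lowest too, at 56.8.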

How the results depend on the processing

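No Sox probe set passed under any of the 20 other settings, where the lowest Sox adjusted p was 0.562, with array weights. Of 160 values for the 9 tested genes under settings that can move an estimate (a filter or variance trend cannot), 152 kept their sign. The exceptions were Sox4 with median centring (-0.0036), without wild-type arrays 1 and 3 (-0.012) and averaged over its probe sets (-0.23), Sox10 without wild-type arrays 1 and 3 (0.18), Sox11 without the 3 arrays of high beta-actin ratio, a setting added after seeing the data (0.037), and single arrays left out. With each array left out in turn, the values ran from -0.13 to 0.27 for Sox4, -0.69 to 0.17 for Sox18, -0.41 to 0.015 for Sox10, -0.79 to -0.21 for Sox11, -1.31 to -0.29 for Sox8, -0.81 to -0.38 for Sox9, 0.32 to 1.44 for Sox12, -1.61 to -0.51 for Sox17 and -3.09 to -1.49 for Sox6. Calls over all probe sets, 9 as reported, numbered 3 to 8 with 1 array left out. In limma, 0 were left without wild-type arrays 1 and 3 (2013 at an unadjusted p under 0.05), 0 without the 3 arrays of high ratio (894), and 0 with the replicate number as a block (1756), where Sox calls were also 0. The causes were not tested. Sox2 lay below the filter and has a value without filter only. Signal over background is not recorded in the deposited values, so whether dim probe sets detect their gene is not known here.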

Other observations

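Other cell types that a captured vesicle can carry gave values beside those of the Sox genes. Of 14 renal vesicle genes tested, 9 were lower in the mutants and 5 higher (median -0.42), and none passed at its representative probe set. Dkk1, a secreted Wnt inhibitor, had the largest (-1.81 ± 0.56, adjusted p = 0.651), followed by Dll1 and Lfng of the Notch pathway (-1.33 and -0.94, adjusted p = 0.696 and 0.837). Cap mesenchyme genes split into 4 above 0 and 4 below, with Meox1 at 2.18 ± 0.71 (adjusted p = 0.668), Osr1 at -1.26 ± 0.63 (adjusted p = 0.784) and Six2, a factor of nephron progenitors, at 0.88 ± 0.40 (adjusted p = 0.748). Osr1 was tested only through its wild-type values, as the mean of its mutant arrays alone lay below the filter. Of 12 stromal genes, 5 were above 0 and 7 below (median -0.32), and their level peaked at 2.02 on wild-type array 3. Pdgfra, a growth factor receptor, was at -1.61, and the matrix genes Postn and Dcn at -1.33 and -1.21 (adjusted p = 0.799, 0.895 and 0.887). Of 9 tested macrophage genes, 8 were above 0 (median 0.52), with Cd68 at 1.56 ± 0.77, the complement gene C1qb at 1.19 and the mannose receptor Mrc1 at -0.88 (adjusted p = 0.776, 0.811 and 0.910). Of 8 erythroid genes, whose maturation program includes Sox6 in mouse, 6 were below 0 (median -0.47), with the anion exchanger Slc4a1 at -1.52, the embryonic globin Hbb-bh1 at -0.80 and Gata1 at -0.76 (adjusted p = 0.791, 0.927 and 0.811). None passed in these 5 lists. Background over genes was 0.0529% called.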
